A study of Homo sapiens with 14 samples.

Results

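The 9 genes MAPK8, MAPK9, MAPK10, MAPK14, MAP2K4, MAP2K7, MAP3K1, MAP3K5 and MAP3K7 encode kinases of the JNK and p38 cascades, and they were taken out of 20136 protein-coding genes by name. For each gene, the peaks of all 14 peak lists were collected over the gene body plus 10 kb on each side. The lists came from CUT&Tag, which sequences the fragments cut out by a transposase that an antibody has brought to its target. Wild-type LX-2 cells, a line derived from human hepatic stellate cells, had spent 2 days on a matrix that was either soft or stiff. Phosphorylated JUN (p-JUN), H3K4me3 and H3K27me3 had 2 libraries per matrix, and H3K27ac had 1 merged list per matrix, so that H3K27ac differences carry no replicate error. In the stiff group, p-JUN libraries bear TCP in their titles and histone libraries bear 40K. The study uses TCP for tissue culture plastic, so the p-JUN comparison is between libraries labelled soft and libraries labelled stiff. The study's methods call the replicates of its sequencing experiments biological, and do not say whether these were separate cultures. LX-2 is a single line, and other stellate cells were not measured.

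In these cascades a kinase of the MAP3K tier phosphorylates a kinase of the MAP2K tier, which then phosphorylates JNK or p38. JNK in turn phosphorylates JUN in its transactivation domain, and JUN with its partners forms AP-1, which binds the sequence TGACTCA or its reverse complement TGAGTCA. In stellate cells both cascades respond to cytokines and stress. The study examined kinases upstream of JUN with inhibitors of ERK, JNK and p38 in cells on the stiff matrix. It reported lower p-JUN after the ERK inhibitor and no effect of the others, and proposes ERK as critical for JUN activation. The peak lists allow a separate question: whether the genes of the JNK and p38 cascades carry p-JUN and histone marks, and whether those differ with the matrix. The marks record the state of chromatin at a gene and not the activity of its kinase.

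The 4 p-JUN lists held 48163 to 54168 peaks, the H3K4me3 lists 18096 to 18857, the H3K27ac lists 18238 (soft) and 13322 (stiff), and the H3K27me3 lists 6974 to 19843. H3K4me3, which marks active promoters, lay at 5 of 7 stellate cell genes in all 4 libraries, among them ACTA2, COL1A1 and PDGFRB, and at neither COL1A2 nor LUM. It was absent from all 3 hepatocyte genes, both leukocyte genes and the endothelial gene STAB2. PECAM1, the other endothelial gene planned, gave no value here. Of the cholangiocyte genes, EPCAM had it in all 4 libraries and KRT19 in none.

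Each of the 9 genes had H3K4me3 at its promoter in every library, 8 of the 9 had p-JUN peaks in every list (67% of coding genes did), and 3 had H3K27ac in both lists (40.8%). The shares for p-JUN and H3K27ac do not take window length into account. Per 100 kb of window, the median number of p-JUN peaks was 2.73 over the 9 genes and 2.51 over all coding genes. For H3K4me3 the medians were 1.07 and 1.73, and for H3K27ac 0.483 and 0.596. H3K27me3, a repressive mark, was in any list for 2 of the 9 (27.5% of coding genes). The p-JUN lists held 33 and 25 peaks over the 9 windows on soft and 31 and 41 in the libraries labelled stiff. The 9 windows held 14 H3K4me3 peaks in each soft library, and 13 and 14 in the stiff libraries. H3K27ac peaks numbered 8 (soft) and 4 (stiff). For H3K27me3 the soft libraries gave 2 and 0 and the stiff libraries 0 and 1. The p-JUN and H3K27me3 groups overlapped, and the H3K4me3 groups met at 14.

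**Figure D1:**
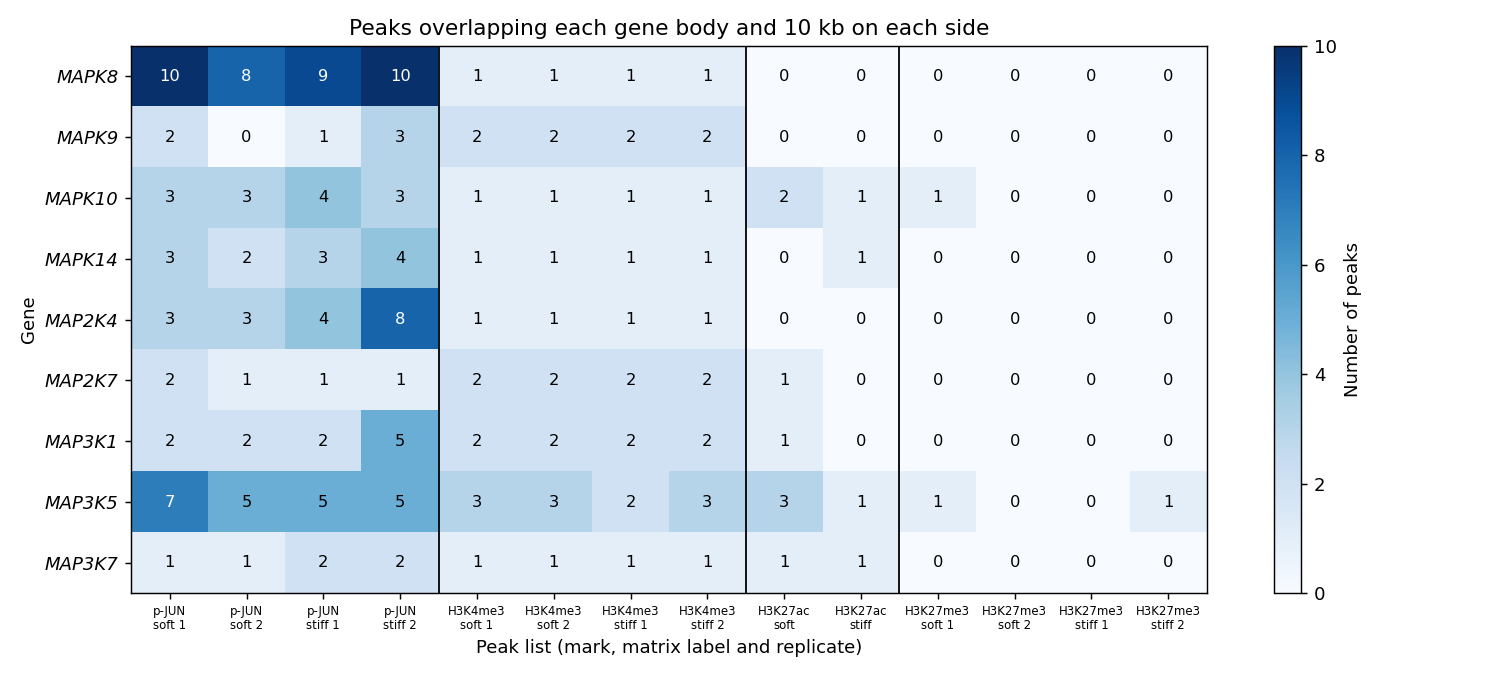
Number of peaks overlapping each gene body and 10 kb on each side (rows) in each of the 14 peak lists (columns, by mark, matrix label and replicate). MAPK8 held 8 to 10 p-JUN peaks in each list, and the H3K4me3 columns hold at least 1 peak for every gene.

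The letters at p-JUN summits are shown first, for some of the sites that held a form of the AP-1 sequence, because the form differed between them. Other sites of MAPK8 and MAPK10 held the AP-1 heptamer. Each line gives 101 bases of the plus strand of GRCh37, centred on a p-JUN summit, with the heptamers TGACTCA or TGAGTCA, or TGACTAA or TTAGTCA, in capitals. The strongest site of a gene is here the one with the best mean rank by −log10 q over the 4 lists. The strongest site of MAPK14 held none of these heptamers within 50 bp of a summit and is not shown. The 3 sites with the AP-1 heptamer shown here are the strongest site of MAP3K5 (chr6:136931507-136931607), the strongest of MAP2K4 (chr17:11993242-11993342) and the site of MAP3K7 that had a peak only in the libraries labelled stiff (chr6:91255311-91255411). In MAP2K4 the region at chr17:11943572-11945174 had more fragments (86 and 74 on soft, 70 and 75 in the libraries labelled stiff) than the strongest by rank (64 and 55, and 55 and 68).
MAP3K5 intron site: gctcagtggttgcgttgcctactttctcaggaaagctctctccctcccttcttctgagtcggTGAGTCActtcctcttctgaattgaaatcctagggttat
MAP2K4 intron site: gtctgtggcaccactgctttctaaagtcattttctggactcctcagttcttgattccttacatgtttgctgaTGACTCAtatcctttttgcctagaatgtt
MAP3K7 intron site: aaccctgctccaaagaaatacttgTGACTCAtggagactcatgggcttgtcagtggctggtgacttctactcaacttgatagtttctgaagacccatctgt

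The strongest site of MAPK8 (chr10:49614441-49614541), the strongest of MAPK10 (chr4:87260291-87260391) and the MAP2K4 site with a peak only in the libraries labelled stiff (chr17:12022069-12022169) lacked that heptamer and held TGACTAA, which differs from it by a single letter.
MAPK8 intron site: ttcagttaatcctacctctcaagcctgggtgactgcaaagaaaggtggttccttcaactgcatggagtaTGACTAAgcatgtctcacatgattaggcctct
MAPK10 intron site: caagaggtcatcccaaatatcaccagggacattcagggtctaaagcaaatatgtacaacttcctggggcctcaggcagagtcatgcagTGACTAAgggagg
MAP2K4 stiff-only site: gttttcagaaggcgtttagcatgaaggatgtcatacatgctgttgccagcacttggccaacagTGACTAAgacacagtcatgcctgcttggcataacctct

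Overlapping peaks (by 1 bp or more) of the libraries of each mark were joined into regions, which gave 44 p-JUN regions in the 9 windows, of 61411 in all. Of these, 29 had their summit in an intron, 5 in an exon and 10 in the flanks. TGACTCA or TGAGTCA, searched on both strands, lay within 50 bp of a summit at 16 of the 44 (36.4%) and at 37.3% of all p-JUN regions, which is nearly the same share. At positions 1 kb away it was found at 2.66% over all regions. Beyond 1 kb of a coding start 15 of 31 regions held it (48.4%, against 42.8% of all p-JUN regions so placed). Within 1 kb 1 of 13 did (7.69%, against 12.3%), and none of the 10 at a start of the genes themselves. The cyclic AMP response form TGACGTCA was at 0 of the 44. TGACTAA or TTAGTCA, a form chosen after the letters above had been seen, was at 6 of the 44 (13.6%) and at 8.0% of all p-JUN regions. At least 1 of these forms was at 20 of the 44 (45.5%) and at 44.2% of all p-JUN regions. A match is a description of the letters, and no binding protein was tested.

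**Figure D2:**
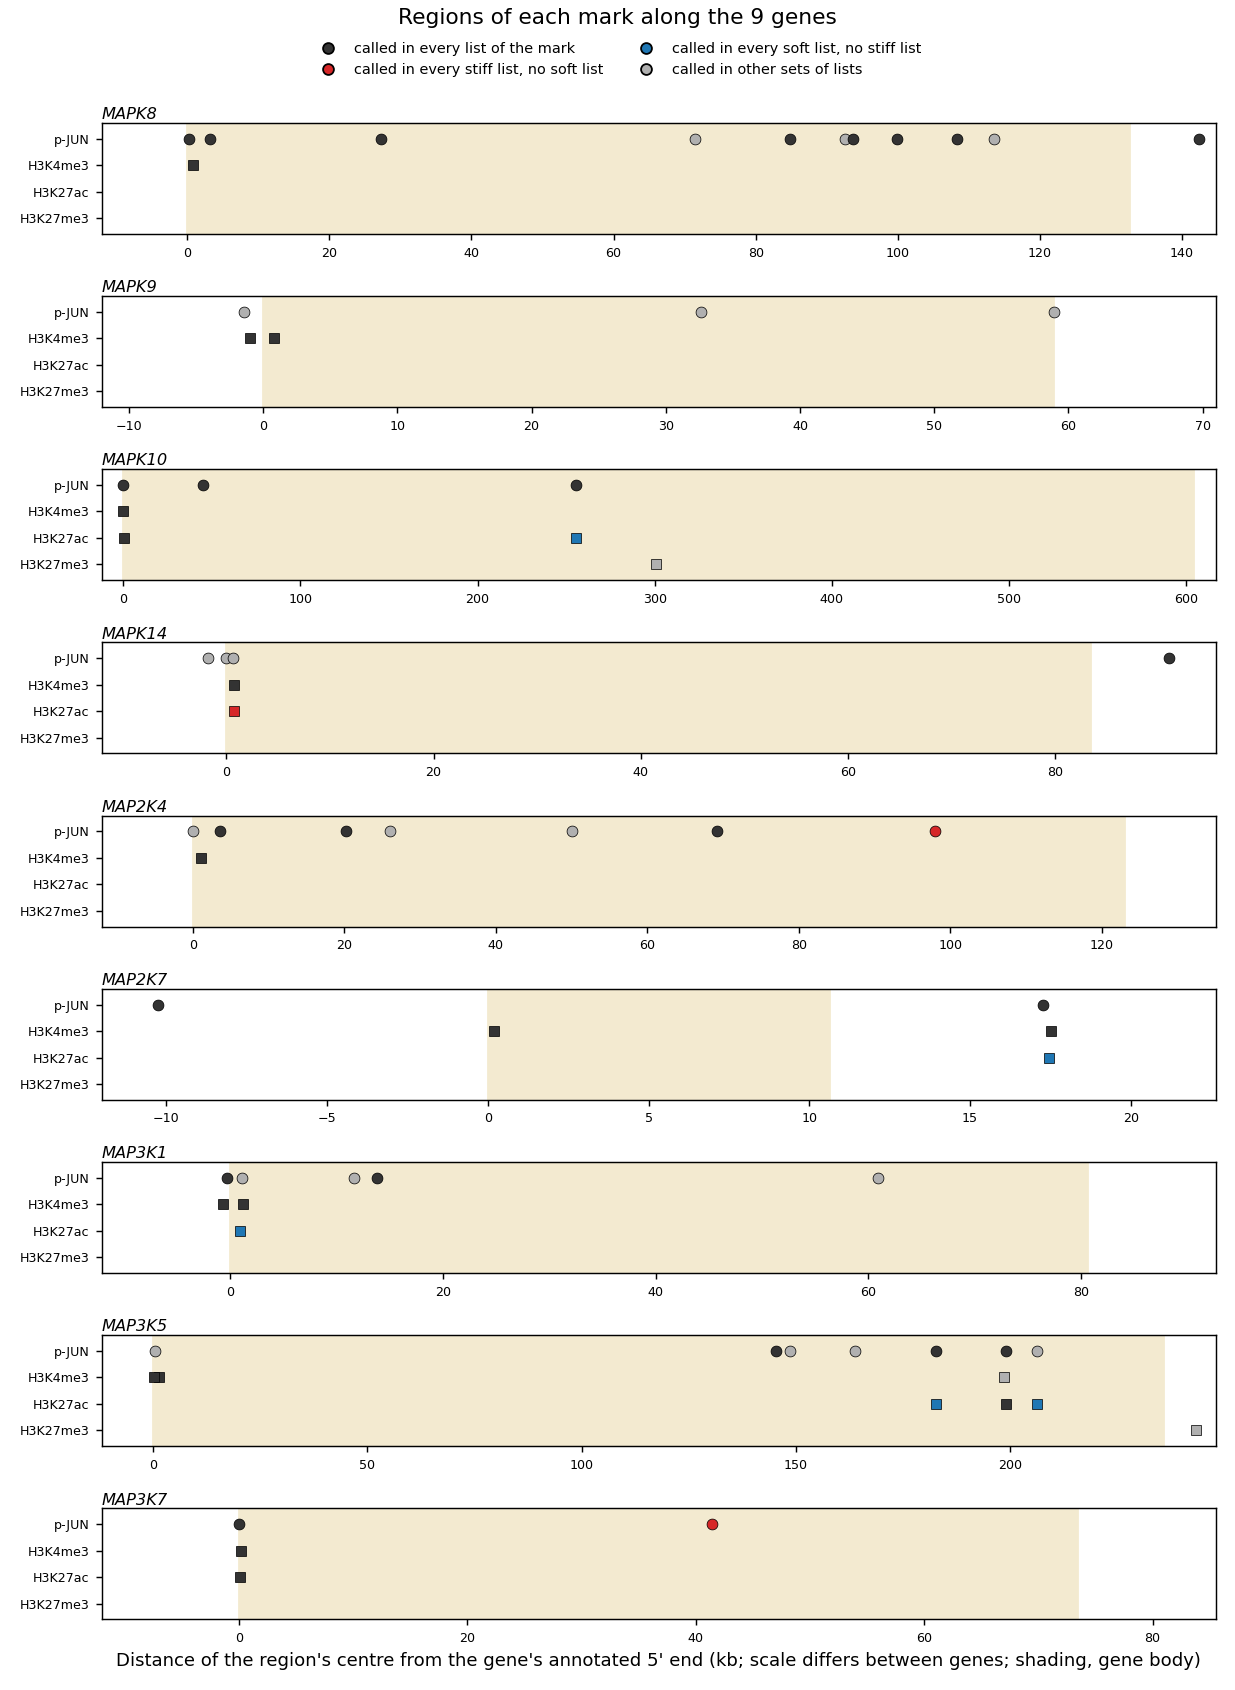
Regions of each mark along the 9 genes, by distance of the region's centre from the annotated 5′ end of the gene in kb (horizontal axis, with a scale of its own for each gene), with the gene body shaded. Points are coloured by the lists that called them, and the 2 red p-JUN points in MAP2K4 and MAP3K7 mark the regions of the libraries labelled stiff alone.

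The 3 JNK genes differed widely in p-JUN. MAPK8 (chr10:49514682-49647403, plus strand), which encodes the ubiquitous kinase JNK1, held 10 and 8 p-JUN peaks on soft and 9 and 10 in the libraries labelled stiff. The groups overlapped, and each list alone held more over MAPK8 than over any of the other 8 genes. Per length MAPK8 had 6.06 p-JUN peaks per 100 kb, above 84.2% of coding genes. Its strongest region, in an intron at chr10:49614164-49614938, had 339 and 326 fragments at the summit on soft and 300 and 384 in the libraries labelled stiff. The stiff values lay on both sides of the soft values. This region ranked 950 to 1439 in the 4 lists, ahead of every other region of the 9 genes. Of the 11 MAPK8 regions, 8 were called in all 4 libraries. The flank past the 3′ end included a site inside ARHGAP22, at chr10:49656708-49657468, with 209 and 181 fragments on soft and 214 and 227 in the libraries labelled stiff.

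MAPK9 (chr5:179660143-179719099, minus strand), which encodes JNK2, had 2 and 0 p-JUN peaks on soft and 1 and 3 in the libraries labelled stiff. Of its 3 p-JUN regions, none was called in all 4 libraries, so MAPK9 was the single gene of the 9 without a shared p-JUN site. Its highest region overlapped the 3′ end of the gene, at chr5:179660032-179660314. That region had 33 fragments in the first soft library, no peak in the second, and 41 and 67 in the libraries labelled stiff.

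MAPK10 (chr4:86911160-87515778, minus strand), which encodes JNK3, the form known mainly from brain, heart and testis, spans 604.6 kb. It held 3 and 3 p-JUN peaks on soft and 4 and 3 in the libraries labelled stiff, or 0.52 per 100 kb, above 24.2% of coding genes. Its 3 regions were each called in all 4 libraries. The strongest, at chr4:87259917-87260672, had 205 and 162 fragments on soft and 153 and 210 in the libraries labelled stiff, with overlapping groups. It lay 1.3 kb inside one of the many annotated coding starts of the gene, and H3K27ac was called there in the soft list alone, with 23 fragments. The promoter region of MAPK10 is shared with that of PTPN13, a phosphatase gene that runs the other way, and the marks there cannot be assigned to either gene. It carried p-JUN, H3K4me3 and H3K27ac in every list.

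MAPK14 (chr6:35995559-36079013, plus strand), which encodes p38α, had 3 and 2 p-JUN peaks on soft and 3 and 4 in the libraries labelled stiff. Its promoter had p-JUN in every library, but split over 2 low regions of 24 to 29 fragments. The shared region was beyond the 3′ end, at chr6:36086348-36086658, with 47 and 40 fragments on soft and 34 and 36 in the libraries labelled stiff. The soft values were the higher ones in fragments. As fold over background the same site had 6.04 and 6.04 on soft and 6.69 and 5.99 in the libraries labelled stiff, where the groups overlapped.

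Next, the MAP2K tier was examined. MAP2K4 (chr17:11924146-12047147, plus strand), whose product acts on both JNK and p38, had 3 and 3 p-JUN peaks on soft and 4 and 8 in the libraries labelled stiff. The groups did not overlap here, with stiff higher, as for 4.95% of coding genes with a p-JUN peak. MAP3K7 was the other such gene of the 9, and no gene had all soft values higher (3.95% of coding genes). The exact two-sided permutation test gave p = 0.333, the smallest that 2 libraries against 2 allow. Of the 7 regions of MAP2K4, 3 had a peak in the second stiff-labelled library alone, including the promoter region, with 38 fragments. That library had the longest p-JUN list.

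The remaining MAP2K4 region without a soft peak was at chr17:12021873-12022241, in an intron 97.9 kb from the start, with 56 and 54 fragments in the libraries labelled stiff. Peaks of the soft lists close to the threshold of the lists (−log10 q below 6) had a median of 20 and 18 fragments, with 95th percentiles of 40.4 and 33.85. The soft lists give no fragments at the MAP2K4 site, and the part of the threshold in its missing soft peak was not tested. The MAP2K4 site was higher than 85.9% of the 1690 p-JUN regions called in both stiff-labelled libraries and in no soft library, whose median was 30.5 fragments.

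MAP2K7 (chr19:7968728-7979363, plus strand), which acts on JNK and not on p38, had no p-JUN region inside its gene body or at its own promoter. Its window held 2 and 1 peaks on soft and 1 and 1 in the libraries labelled stiff, at the neighbours LRRC8E and SNAPC2. The SNAPC2 site, at chr19:7985732-7986242, had 75 and 58 fragments on soft and 37 and 53 in the libraries labelled stiff. The soft values were all higher. The LRRC8E region had 94 and 75 fragments on soft and 72 and 63 in the libraries labelled stiff, and reached the window by its edge alone.

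In the MAP3K tier, MAP3K1 (chr5:56111376-56191979, plus strand), which encodes MEKK1, had 2 and 2 p-JUN peaks on soft and 2 and 5 in the libraries labelled stiff. The 3 extra peaks were those of the second stiff-labelled library alone, with 30 to 46 fragments. The shared intron site had 115 and 103 fragments on soft and 134 and 106 in the libraries labelled stiff, with overlapping groups.

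MAP3K5 (chr6:136878184-137114235, minus strand), which encodes the oxidative stress kinase ASK1, had 7 and 5 p-JUN peaks on soft and 5 and 5 in the libraries labelled stiff. Apart from its promoter, its p-JUN regions lay 144.8 to 205.9 kb into the gene, and 3 of these coincided with H3K27ac. The strongest, at chr6:136930919-136931791, had 228 and 201 fragments on soft and 161 and 206 in the libraries labelled stiff.

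MAP3K7 (chr6:91223292-91296805, minus strand), which encodes TAK1, the kinase that relays TGF-β, TNF and interleukin signals, had 1 and 1 p-JUN peaks on soft and 2 and 2 in the libraries labelled stiff. The groups did not overlap, and p was again 0.333 by the exact permutation test. The shared peak was the promoter. The additional peak was the intron site at chr6:91255233-91255569, 41.2 kb from the start, with 51 and 55 fragments in the libraries labelled stiff and no peak on soft. Its fold over background was 14.7 and 15.7. In mean fragments of the libraries labelled stiff, the site was higher than 84.9% of the regions called in those libraries alone.

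To compare the soft and stiff labels over all 9 genes, the p-JUN regions were sorted by the libraries that called them. In all 4 libraries 23 of the 44 were called (52.3%, against 65.8% of all p-JUN regions). The MAP2K4 and MAP3K7 sites above made 2 regions (4.55%) called in both stiff-labelled libraries and in no soft library, where the share over all p-JUN regions was 2.75%. The reverse class, soft libraries alone, held 0 of the 44, against 1.74% of all. Without the first stiff-labelled library the 2 regions became 10, and without the first soft library 6, while the count over all p-JUN regions rose from 1690 to 5340 and 3951. A larger number, 8 of 44 (18.2%), had a peak in the second stiff-labelled library alone, against 5.92% of all regions. These 8 lay in MAPK8, MAPK9, MAP2K4 and MAP3K1 and had 17 to 46 fragments. With lists cut to equal length, the 9 windows held 31 and 25 p-JUN peaks on soft and 30 and 35 in the libraries labelled stiff. The part of list length in the 8 regions was not tested.

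**Figure D3:**
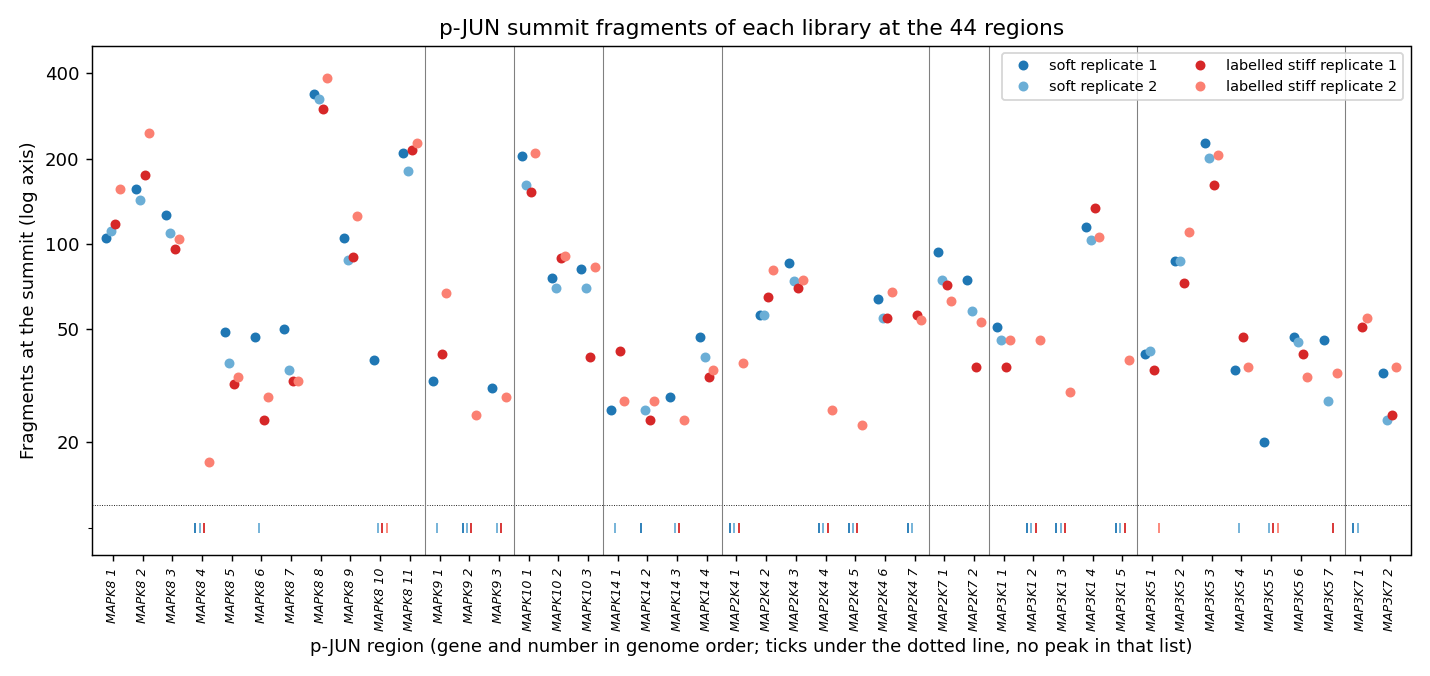
Fragments at the p-JUN summit of each library (vertical axis, logarithmic) at the 44 regions of the 9 genes, in genome order within each gene; ticks under the dotted line mark lists without a peak. The tall regions, such as MAPK8 region 8 with 300 to 384 fragments, had peaks in all 4 libraries, and regions with a peak in the second stiff-labelled library alone had 17 to 46 fragments.

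Peak height was then compared at the regions called in all 4 libraries, as log2 of the deposited fold over local background, with each library centred on its median. For p-JUN, limma called 0 of the 23 regions of these genes and 0 of 40433 regions in all (0%) at an adjusted p under 0.05. Unadjusted p was under 0.05 at 2 of the 23 and at 3773 of all regions (9.33%). The differences between the libraries labelled stiff and soft ran from -0.33 to 0.27 on the log2 scale, with SE from 0.06 to 0.23 and a median of 0.00, and 12 were above 0. The largest rise in value was at the intron site near the start of MAPK8 (chr10:49517592-49518146), with fold 7.81 and 7.49 on soft and 8.86 and 10.2 in the libraries labelled stiff. The groups did not overlap, and the difference was 0.27 (SE 0.11, adjusted p = 0.512, limma). The strongest sites of MAPK8, MAPK10 and MAP3K5 differed by 0.00 (SE 0.06), 0.03 (SE 0.07) and 0.01 (SE 0.09). The groups did not overlap with stiff higher at 5 of the 23 and with soft higher at 5, against 18.5% and 21.2% of all shared regions.

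The fragments at the same summits, which do not take the local background into account, gave calls. On that scale limma called 3 of the 23 p-JUN regions, against 13.5% of all 40433 (6.16% with stiff higher and 7.39% with stiff lower). The MAPK8 site near the start was higher in the libraries labelled stiff, with 157 and 143 fragments on soft and 175 and 247 in the libraries labelled stiff (log2 difference 0.42, SE 0.11, adjusted p = 0.00356). The SNAPC2 site beside MAP2K7 was lower there (log2 difference -0.63, SE 0.19, adjusted p = 0.0126). The strongest MAP3K5 site was also lower there (log2 difference -0.29, SE 0.10, adjusted p = 0.04), with fragments that overlapped before centring. On the fold scale the adjusted p of the MAPK8, SNAPC2 and MAP3K5 sites were 0.512, 0.588 and 0.982. In both fits limma draws the variance of a region toward the trend over all shared regions. The SE and adjusted p therefore do not measure the spread of a site's own libraries alone.

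The promoters were examined next. H3K4me3 lay within 1 kb of a coding start in every library for all 9 genes, and for 62.8% of 19794 coding genes. p-JUN did so in every list for 5 of the 9, MAPK8, MAPK10, MAPK14, MAP3K1 and MAP3K7, and for 38.2% of coding genes. MAP3K5 lacked it in 1 library, MAP2K4 had it in 1 library, and MAPK9 and MAP2K7 had it in none. H3K27ac was at the promoters of MAPK10 and MAP3K7 in both lists (21.3% of coding genes), at that of MAPK14 in the stiff list and at that of MAP3K1 in the soft list. H3K27me3 was at no promoter of the 9 in any list (10.3% of coding genes had it in at least 1). Of the 44 p-JUN regions, 11 overlapped H3K4me3 (25%, against 23% of all), 9 overlapped H3K27ac (20.5%, against 29.7%), 0 overlapped H3K27me3 (1.28% of all), and 30 overlapped no histone mark measured (68.2%, against 60.2%).

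Of the 14 H3K4me3 regions of these genes, 13 were called in all 4 libraries (78.9% of all H3K4me3 regions were). None was called on stiff alone or on soft alone, against 1.77% and 1.25% of all. At the 13, limma called 0 (0 of 16098 in all, 0%). Unadjusted p was under 0.05 at 2 of the 13 and at 1607 of all (9.98%). Both had stiff higher. The MAP2K7 promoter had fold 6.51 and 7.23 on soft and 8.81 and 9.57 on stiff (log2 difference 0.35, SE 0.09, adjusted p = 0.394, limma). The MAP3K7 promoter had 8.55 and 8.75 on soft and 10.3 and 10.6 on stiff (log2 difference 0.20, SE 0.07, adjusted p = 0.485). In both the groups did not overlap. Over the 13 regions this was so with stiff higher at 5 (38.5%, against 19.3% of all shared regions) and with soft higher at 4 (30.8%, against 22.4%). With summit fragments limma called the MAP3K7 promoter, where 4.46% of all regions were called, 2.29% with stiff higher (230 and 310 fragments on soft, 368 and 567 on stiff, log2 difference 0.31, adjusted p = 0.041). The MAP2K4 promoter was at the other end, with fold 9.12 and 8.54 on soft and 7.9 and 8.54 on stiff (log2 difference -0.18, SE 0.09, adjusted p = 0.551).

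**Figure D4:**
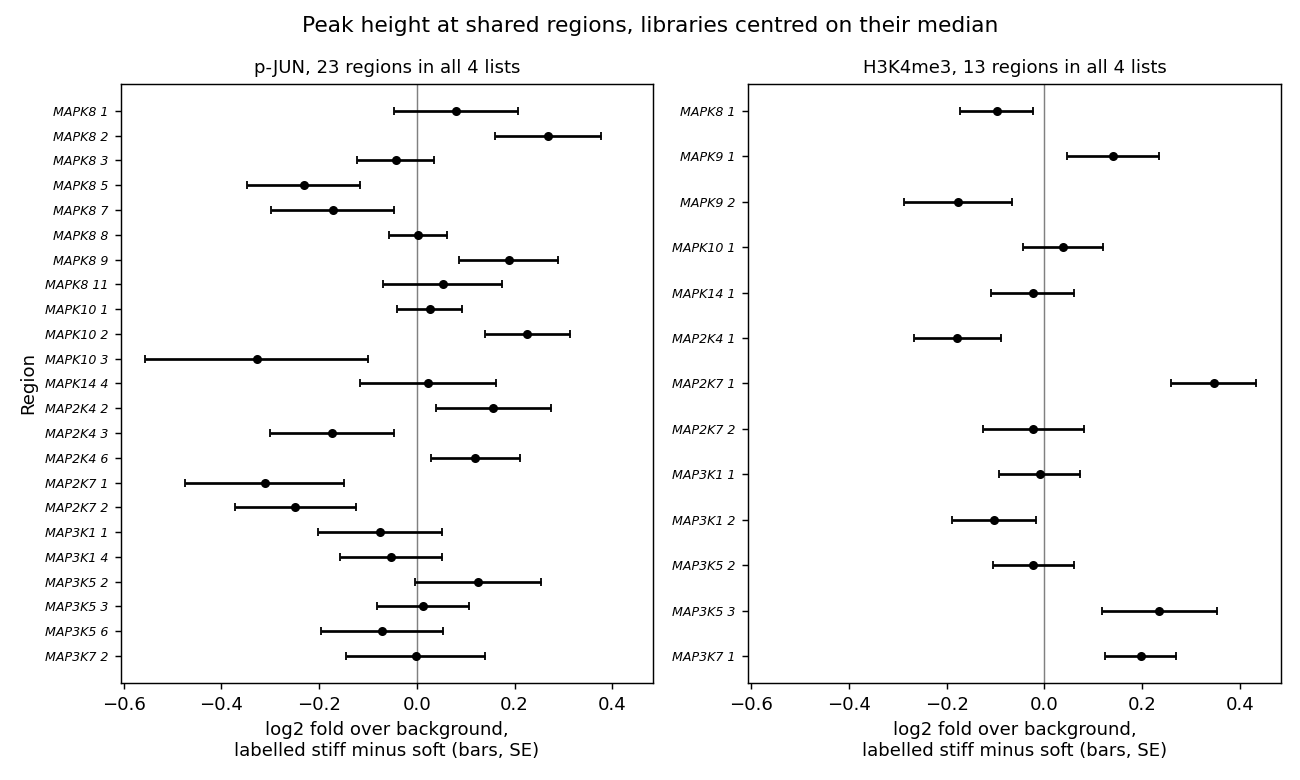
Difference in log2 fold over background, libraries labelled stiff minus soft, with bars of 1 SE, at the 23 p-JUN and 13 H3K4me3 regions called in all 4 lists. The p-JUN points lie between -0.33 and 0.27, and the MAP2K7 promoter is the highest H3K4me3 point, at 0.35.

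H3K27ac, found at active enhancers and promoters, was called at 9 regions of these genes. In both lists 3 were called, against 54.1% of all H3K27ac regions: the shared promoter of MAPK10 and PTPN13 (31 fragments on soft, 23 on stiff), the MAP3K7 promoter (26 and 22) and an intron region of MAP3K5 198.6 kb from its start (42 and 34). In the soft list alone 5 were called, against 35% of all H3K27ac regions. They lay in MAPK10, at SNAPC2 beside MAP2K7, at the promoter of MAP3K1 and at 2 intron sites of MAP3K5, with 15 to 34 fragments. In the stiff list alone 1 was called, at the MAPK14 promoter (24 fragments), against 10.9% of all. At both MAP3K5 sites, the MAPK10 site and the SNAPC2 site p-JUN was called in soft libraries and in libraries labelled stiff. At the MAP3K1 site p-JUN was called in the second stiff-labelled library alone. The titles of the stiff-labelled p-JUN libraries differ from those of the H3K27ac stiff list. The stiff list was the shorter of the 2, and with 1 list per matrix no test was possible.

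H3K27me3 was called at 2 regions of these genes, an intron of MAPK10 in 1 soft library and the MAP7 gene in the flank of MAP3K5 in 1 soft and 1 stiff library. Neither was called in all 4 libraries (10.2% of all H3K27me3 regions were), and neither overlapped p-JUN.

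Genes with a like pattern of peak numbers over the 14 lists were looked up, by the Euclidean distance of log2(peaks + 1). STPG2 was nearest to MAPK8 (distance 0.14) and FBXO28 to MAPK14 (0.32), out of 20136 genes.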

How the data were processed

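CUT&Tag peak lists of LX-2 cells were grouped by the treatment label. As the labels and methods state, the authors used Trim Galore for adapters, Bowtie2 for alignment to hg19 (GRCh37), Picard for duplicates and MACS2 for peaks. Its options and version and any control library were not given in the sources used here. The deposited lists hold, per peak, a ratio (fold of the summit over local background), a −log10 p, a −log10 q and a score derived from it. H3K27me3 lists hold broad peaks, and the depth of those libraries cannot be read from them. No narrow peak had a deposited −log10 q under 5. Read totals were not analysed here, and lists were not scaled to each other.

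Fragments at each narrow summit were solved from fold and −log10 p, and at least 99.9% of peaks per list gave a whole number (relative error under 1e-04). The 24 nuclear chromosomes were used, which left out 2 to 8 peaks per list. Genes came from GENCODE release 44 mapped to GRCh37, and sequences from that genome. Shared regions were tested with limma 3.58.1 (R 4.3.3, trended eBayes, Benjamini-Hochberg adjustment over all regions of a mark) on log2 fold centred per library. Counts per gene were compared by exact permutation. The region and limma steps were tested on simulated data. Python 3.11.15, pandas 2.3.3 and matplotlib 3.10.9 were used.

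All 9 genes were named, with the regions called on a single matrix and the p-JUN region of best mean rank in each gene. Genes and lists were chosen with earlier results of these data known. Alternatives covered the flank, list length, −log10 q, overlap, centring, replicates, and motif and promoter distance. The TGACTAA form was added after the data were seen. The sequence at 1 p-JUN site is not reported here.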

Additional observations from a re-analysis of the deposited data

How the results depend on the processing

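Of 161 recomputed values over 23 results, 139 were counted as unchanged. For peak numbers this meant within the spread between pairs of libraries, or for H3K27ac within the 95% interval of its 2 counts. For the motif share it meant within its 95% interval, and for counts of regions or genes the same or a similar count. Changes of sign were not counted apart. The H3K27me3 difference in peaks went from -0.585 to 1 on the log2 scale without the first soft library, inside its spread. The difference in p-JUN peaks over the 9 genes was 0.307 on the log2 scale, less than its spread between pairs of libraries (SD 0.323). It stayed within that spread with no flank, a flank of 50 kb, lists of equal length and a −log10 q of at least 10. Leaving out a library gave 0.0946 (second stiff-labelled), 0.124 (second soft), 0.492 (first stiff-labelled) and 0.517 (first soft). The number of p-JUN regions called in the libraries labelled stiff alone was 2 and ranged from 2 to 10 when a replicate was left out. It was 10 without the first stiff-labelled library and 6 without the first soft library, where the count over all p-JUN regions went from 1690 to 5340 and 3951. The p-JUN count for soft alone was 0 and ranged from 0 to 2, that of H3K4me3 from 0 to 1 and that of H3K27me3 from 0 to 1. The replicate numbers did not pair the libraries (the correlation of deviations was 0.00471 in p-JUN, -0.0501 in H3K4me3 and 0.0356 in H3K27me3). With a replicate block, stiff-alone and soft-alone regions averaged 9.5 and 3 for p-JUN (6847 and 5435.5 over all regions), and 0.5 and 1 for H3K27me3 (2563 and 10067.5). H3K4me3 soft-alone regions averaged 0.5 (1089 over all).

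With summit fragments limma called 3 p-JUN and 1 H3K4me3 regions of the 9 genes in place of 0, and 5478 and 718 of all regions. Over all p-JUN regions, 41 were called with the replicate block, and 0 to 23 when a library was left out (14 without the first and 23 without the second soft library), none of them in these 9 genes. H3K4me3 had 0 to 1 such calls, and H3K27me3 had 1 at a −log10 q of at least 5. The causes of these differences were not tested. The AP-1 heptamer was at 52.2% of the p-JUN regions called in all 4 libraries, and at 36.4% of all 44, against 43.2% and 37.3% of the same classes over all p-JUN regions. With 2 libraries per matrix and shallow H3K27ac summits, small differences were not detectable.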

Other observations

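Further genes of the stress cascades and the ERK cascade gave values of the same kind. The 32 other stress cascade genes held 103 p-JUN regions, of which 70 were called in all 4 libraries (65.8% of all p-JUN regions were). There, 3 were called in the libraries labelled stiff alone (2.75% of all p-JUN regions) and 1 in the soft libraries alone (1.74%). The 9 ERK cascade genes held 27 p-JUN regions, of which 18 were called in all 4 libraries and 1 in the libraries labelled stiff alone. For limma on the fold, 0 of the 70 and 0 of the 18 shared regions were called. Unadjusted p was under 0.05 at 5 and 2, against 9.33% of all shared p-JUN regions. With summit fragments 11 and 2 were called, against 13.5% of all shared p-JUN regions. H3K4me3 was at the promoter in every library for 28 of the 32 stress genes and for all 9 ERK genes, against 62.8% of coding genes. H3K27ac was called in the soft list alone at 17 of 39 regions of the stress genes (43.6%) and 2 of 10 of the ERK genes (20%), against 35% of all H3K27ac regions, and in the stiff list alone at 3 and 0, against 10.9%. These lists were chosen with results of these data known.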
